A study of Rattus norvegicus with 2 samples.

Results

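The potassium channel subunits described here are the rows of the gene table whose symbol is Kcn followed by subfamily letters and a number, 92 of 32662 genes. They stand for 91 symbols, since Kcnn2 has 2 rows, and Kcnj10, the inward rectifier of Müller glia, is not counted among them. The table comes from a study that sequenced retinal RNA after removal of ribosomal RNA to find circular RNAs that differ between conditions. Both retinas came from Long-Evans rats aged 2 months. The CTRL retina had a sham procedure, and the IR12 retina had ischemia-reperfusion injury, in which blood flow is stopped and then restored, and was collected 12 hours after reperfusion. Each condition has 1 library, so every difference given here lacks a replicate check and no p-value was computed. All 10 rod markers examined were present, and Gnat1, the G protein subunit of the rod light response, stood at 4027 FPKM in CTRL and 4237 in IR12. The tissue label therefore fits the gene content of both libraries.

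Potassium channels set the resting potential of cells and end their electrical signals by letting potassium flow out. Voltage-gated subunits form pores that open on depolarisation, silent subunits join such pores without forming any alone, inward rectifiers and two-pore channels hold the membrane near rest, and accessory subunits tune the others. In the retina these channels shape the light response of photoreceptor inner segments, the fast spikes of ganglion and amacrine cells, and the buffering of potassium by glia and pigment epithelium.

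Levels are given as FPKM, a read measure scaled to transcript length and library size, as the authors deposited them. The setting by which library size was normalized is not given in the sources used here, and the direction of many members depends on the scaling. Differences are log2 ratios of IR12 over CTRL after adding 1 to each FPKM, a scale that understates the change of genes at low levels. Olfactory receptor genes, with coding loci of a single exon, had FPKM values that were whole multiples of the worth of 1 read in 42 of 42 cases in CTRL and 117 of 117 in IR12, within 0.02 reads. From these, 1 read in a transcript of 2000 bp was worth 0.0361 FPKM in CTRL and 0.0211 in IR12, and the total used for scaling was 15.4 M reads in CTRL and 26.3 M in IR12. These totals are worked back from the FPKM and are not the sequenced reads. Their ratio of 1.71 equals the ratio of depths only if the values were scaled to mapped reads.

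Of the 92 rows, 81 had a value above 0 in at least 1 library and 56 had a mean FPKM of at least 1, the filter used for differences. The filter fell between Kcnn3, with 1.19 FPKM in CTRL and 0.876 in IR12, and Kcnk10, with 0.932 in CTRL and 1.05 in IR12. In all, 36 rows lay under it, and none of these exceeded 1.07 FPKM in either library. Kcne1, Kcne5, Kcnip2, Kcnmb3, Kcnu1, Kcng2, Kcnk6, Kcnk18, Kcna7, Kcnh3 and the second row of Kcnn2 were listed at 0 in both libraries. A listed 0 is not read as absence, because Otx2, a transcription factor that the retina uses throughout, was also listed at 0.

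Transcript levels were concentrated in a few subunits. Kcnj14, a strong inward rectifier of neurons, was the most abundant member in CTRL at 259 FPKM and was at 164 in IR12. Kcnv2, the silent subunit of photoreceptors whose loss causes a cone dystrophy with an altered rod response, was at 149.8 in CTRL and 230.4 in IR12. Kcnj14 and Kcnv2 thus changed places at the top, where Kcnj14 held 22.7% of the summed FPKM of all members in CTRL and Kcnv2 24.3% in IR12. At lower levels stood Kcnma1, the pore of the large-conductance calcium-activated channel, with 73.8 FPKM in CTRL and 48.4 in IR12. Kcnip4, a calcium-binding partner of the transient A-type channels, had 47.8 and 32.3, and Kcnh5, an ether-a-go-go channel, had 34.4 and 30.4. The order below the top was broadly kept, and the 10 most abundant members held 70.6% of the sum in CTRL and 74.3% in IR12.

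**Figure D1:**
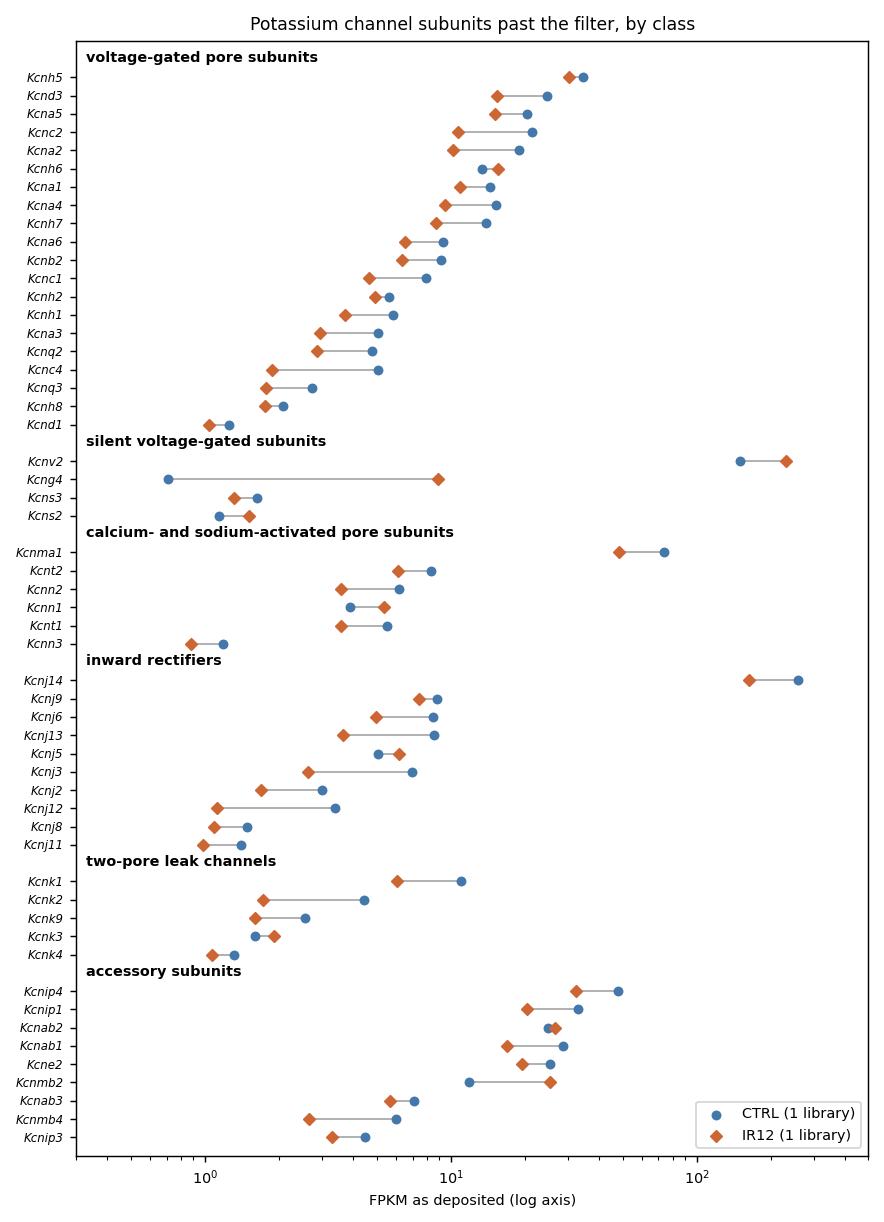
Deposited FPKM (log axis) of potassium channel subunits with a mean FPKM of at least 1 that are reported here, grouped by class, with a circle for the CTRL library and a diamond for the IR12 library. Kcnj14 and Kcnv2 lie above 100 FPKM in both libraries, and Kcng4 spans the longest distance, from 0.706 to 8.85.

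Most members past the filter were lower in IR12 on the deposited scale, and most lay below the median gene on every scale tried. With FPKM as deposited, 47 of 56 members were lower in IR12 by any amount, against 48.1% of the 13186 genes past the same filter, and 9 were higher. Their median log2 ratio was -0.44, beside 0.02 for all genes. When both columns were rescaled to the same sum (TPM scale), the median of all genes moved to 0.60 and that of the members to 0.09, so that 22 members were lower, against 14.8% of all genes, and 34 higher. The direction for the family therefore depends on the scaling. The difference of medians was -0.46 as deposited and -0.51 on the TPM scale. Rescaling a column shifts the log2 ratios of all genes by nearly the same amount. The place of the family below the median gene is thus kept by construction, and the second scale is no separate support. Relative to the median gene, 47 of 56 members lay below as deposited and 49 on the TPM scale.

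Small RNAs take a large and unequal share of the sum that the TPM scale equalises. Small nuclear, small nucleolar and similar RNAs took 67.9% of the CTRL column and 46.2% of the IR12 column, and a short RNA has a high FPKM for few reads. Rescaled to the same sum over the other genes, a choice made after the data were seen, the members had a median of -0.51 and all genes -0.06. On that scale 48 members were lower, against 55.2% of all genes. Which scale matches the RNA content of the retinas was not tested. In bulk tissue, fewer cells of a type and less RNA per cell cannot be told apart.

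**Figure D2:**
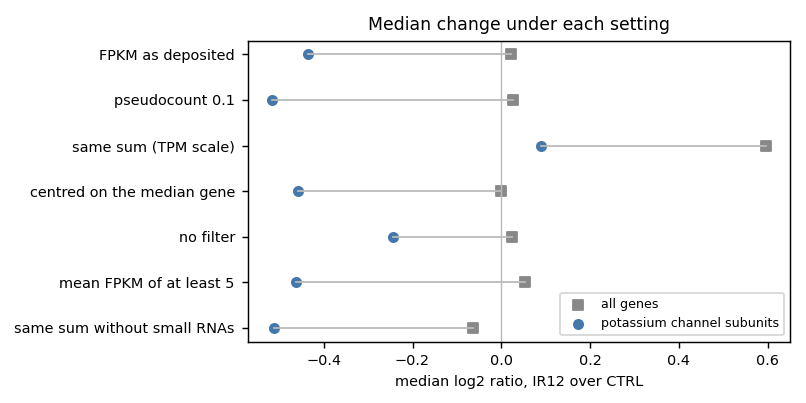
Median log2 ratio of IR12 over CTRL (1 library each) for the potassium channel subunits (circles) and for all genes past the same filter (squares) under each setting. The members lie to the left of all genes in each setting shown, which for a rescaling of the columns holds by construction. The sign of the members' median turns on the TPM scale, from -0.44 to 0.09.

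Large differences were few. At least 2-fold higher in IR12 were 2 members, Kcng4 and Kcnmb2, against 6.29% of all genes. At least 2-fold lower were 4, Kcnc4, Kcnj3, Kcnj12 and Kcnj13, against 6.05% of all genes. Both counts are near or below the background as deposited. On the TPM scale 0 members were at least 2-fold lower, against 3.22% of all genes. On that scale 3 members were at least 2-fold higher, against 20.7% of all genes. At the smaller fold of 1.5, 20 members were lower as deposited, against 13.4% of all genes, and 3 were higher, against 14.3%. On the TPM scale the counts turned, to 2 lower, against 5.06% of all genes, and 7 higher, against 51.1%. As deposited, the middle 50% of members had log2 ratios between -0.65 and -0.18, and the middle 50% of all genes between -0.31 and 0.35.

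**Figure D3:**
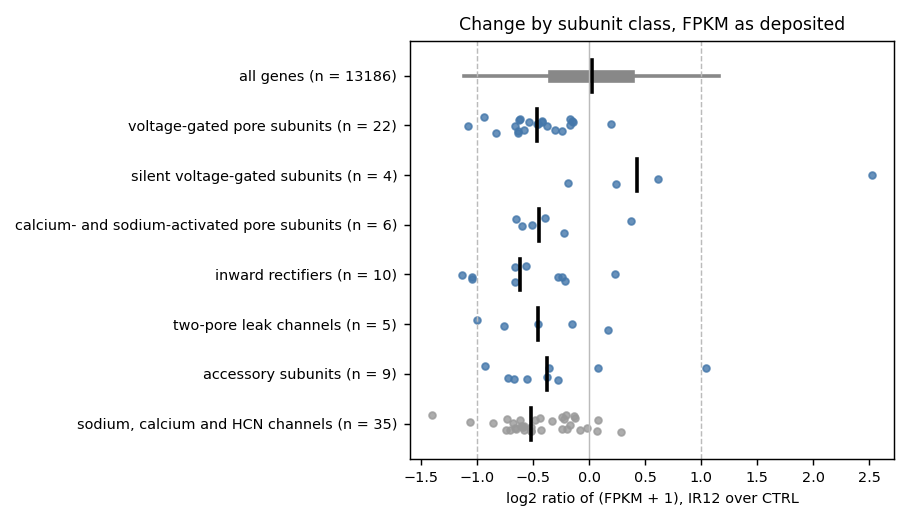
Log2 ratio of (FPKM + 1), IR12 over CTRL (1 library each), for each member past the filter by class, with black bars at the class medians and, for all genes, a box over the middle 50% and a line from percentile 5 to percentile 95; grey points are the other cation channels and dashed lines mark 2-fold. Every class but the silent subunits has a median under 0 with FPKM as deposited, and on the TPM scale the medians of the inward rectifiers and the two-pore channels alone stay under 0.

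The voltage-gated pore subunits (Kcna, Kcnb, Kcnc, Kcnd, Kcnh and Kcnq) were the largest class, with 29 rows and 22 past the filter. Of these, 21 were lower in IR12 as deposited, with a median log2 ratio of -0.46, and 9 were lower on the TPM scale, with a median of 0.06 where all genes had 0.60. Their summed FPKM was 366 in CTRL and 275 in IR12. The subfamilies differed in distance from the median gene. Kcnc, the channels of fast-spiking neurons, had a median of -0.80 over 4 members, Kcna, the axonal channels, -0.54 over 6, and Kcnh, the ether-a-go-go and related channels, -0.17 over 6. On the TPM scale these medians were -0.22, 0.04 and 0.32, in the same order, as a nearly common shift of all ratios leaves it.

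The Kcnc members described here were lower in IR12 as deposited and on the TPM scale. Kcnc4, an inactivating member of the group, was at 5.07 FPKM in CTRL and 1.88 in IR12, which gives -1.08 as log2 ratio. Kcnc2, the most abundant of the group, was at 21.4 and 10.7, a log2 ratio of -0.94. Kcnc1, its close relative in fast-spiking cells, was at 7.93 and 4.64. Kcnc4 was the member of its class past the filter with the lowest ratio, and it was the only voltage-gated pore subunit past 2-fold after adding 1 to each FPKM as deposited.

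Among the other voltage-gated subunits past the filter, none had a ratio as low as Kcnc4 or Kcnc2 as deposited. The lowest of them was Kcna2, at -0.83 as deposited and -0.23 on the TPM scale. It lay below Kcnc1, which had -0.66 and -0.11. Kcnd3, a pore of the A-type current, was at 24.7 FPKM in CTRL and 15.5 in IR12, with a ratio of -0.64 as deposited and -0.02 on the TPM scale. On the latter scale its values were thus almost equal. Kcnh6, of the ether-a-go-go related group, was the only member of the class past the filter that was higher in IR12 as deposited, with 13.5 FPKM in CTRL and 15.6 in IR12. Kcnh5 and Kcnh1, ether-a-go-go channels of which Kcnh1 is known in photoreceptors, had log2 ratios of -0.17 and -0.53, and Kcnh1 stood at 5.83 FPKM in CTRL and 3.72 in IR12. Kcnq5, a channel of the slow M-type current known in pigment epithelium, was at 0.321 and 0.325, under the filter and with almost equal values.

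For some genes with a single short exon, whole reads could be recovered, which gives the counting error of the comparison. The loci of 14 members were shorter than 4200 bp, and 7 of these gave whole reads in both libraries. Kcna4 had 688 reads in CTRL and 728 in the IR12 library, an FPKM ratio of 0.620 with a 95% exact interval from 0.557 to 0.689. Kcna5 had 508 and 639 reads, a ratio of 0.737 (0.654 to 0.829), and Kcna1 had 338 and 435, a ratio of 0.754 (0.652 to 0.871). For these 3 Kcna subunits, the difference on the deposited scale exceeded counting error. Kcnj2, a strong inward rectifier, had 68 and 66 reads and a ratio of 0.568 (0.399 to 0.809), and Kcnf1, a silent subunit, had 28 and 21 and a ratio of 0.439 (0.237 to 0.802). Kcnj11, the pore of the neuronal ATP-sensitive channel, had 61 and 73 reads and an interval from 0.492 to 1.001. Kcnj16 had 3 and 2 reads, and its interval from 0.0326 to 3.41 shows that no difference was detectable at this depth. The intervals compare the 2 libraries, not the conditions, cover counting error only, and take the deposited scaling as given.

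The silent subunits (Kcnf, Kcng, Kcns and Kcnv) were the only class with a median above 0 as deposited. They had 10 rows and 4 past the filter, 3 of them higher in IR12 as deposited and 4 on the TPM scale. The median log2 ratio of the class was 0.43 as deposited and 0.92 on the TPM scale, but it rests on 4 members and was -0.12 when members under the filter were added. Among the 4, Kcng4 passed the filter only through its IR12 level. The others had log2 ratios of 0.62 (Kcnv2), 0.24 (Kcns2) and -0.18 (Kcns3) as deposited. The summed FPKM of the class was 155 in CTRL and 243 in IR12, which is almost all Kcnv2.

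Kcng4, a silent subunit that changes the voltage range and speed of delayed rectifier channels and whose gene marks the large alpha ganglion cells in mouse, showed the largest difference of the family. It was at 0.706 FPKM in CTRL and 8.85 in IR12, which is 12.5 times as much, and its log2 ratio was 2.53. It passed the filter through its IR12 level, so it had to be higher there. Its locus on rn6 is chr19:52270927-52282877, and no other listed gene shares it. On the TPM scale the log2 ratio was 2.86, and with a pseudocount of 0.1 it was 3.47. Because the TPM scale raises IR12 relative to CTRL, the direction there was fixed by the deposited one. On the scale without small RNAs, which lowers IR12 relative to CTRL, the log2 ratio was 2.47. Kcng4 moved from place 59 to place 19 among the members. The other Kcng members stayed low, with Kcng1 at 0.0255 and 0.120 FPKM and Kcng3 at 0.235 and 0.110.

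Kcnv2 (rn6 chr1:245396989-245416531) had 149.8 FPKM in CTRL and 230.4 in IR12, and its log2 ratio was 0.62 as deposited and 1.26 on the TPM scale. The TPM scale raises IR12 relative to CTRL, so a gene higher as deposited had to be higher there too. On the scale without small RNAs, which lowers IR12 relative to CTRL, the log2 ratio of Kcnv2 was 0.52. Kcns2 and Kcns3, silent subunits of the same kind, were near 1 FPKM: Kcns3, with the lowest ratio of the class past the filter, was at 1.63 and 1.31, and Kcns2 at 1.14 and 1.52.

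The promoters of 4 members are shown because they carry the main contrasts: Kcng4 and Kcnmb2, the members at least 2-fold higher in IR12, and Kcnv2 and Kcnj14, the most abundant ones, which moved apart. Each is the 250 bases before the start of the gene in RefSeq on GRCr8, 5′ to 3′ on the strand of the gene. Kcng4 lies at chr19:64597889-64598138 (minus strand), Kcnmb2 at chr2:116599049-116599298 (plus), Kcnv2 at chr1:234412924-234413173 (plus) and Kcnj14 at chr1:105437259-105437508 (minus). Capitals mark TAATCC or TAATCT, cores bound by the photoreceptor factor CRX and its relatives, and the GC box GGGCGG, each on either strand.
Kcng4 promoter: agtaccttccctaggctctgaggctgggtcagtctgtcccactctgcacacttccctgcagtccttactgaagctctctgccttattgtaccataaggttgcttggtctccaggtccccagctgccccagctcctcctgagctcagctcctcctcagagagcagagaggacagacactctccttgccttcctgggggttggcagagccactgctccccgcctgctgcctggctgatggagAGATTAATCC
Kcnmb2 promoter: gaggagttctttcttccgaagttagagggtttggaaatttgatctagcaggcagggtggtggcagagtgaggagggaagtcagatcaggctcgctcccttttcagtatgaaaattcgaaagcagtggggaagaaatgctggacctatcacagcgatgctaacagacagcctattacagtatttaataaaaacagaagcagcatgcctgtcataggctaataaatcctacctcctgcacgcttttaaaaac
Kcnv2 promoter: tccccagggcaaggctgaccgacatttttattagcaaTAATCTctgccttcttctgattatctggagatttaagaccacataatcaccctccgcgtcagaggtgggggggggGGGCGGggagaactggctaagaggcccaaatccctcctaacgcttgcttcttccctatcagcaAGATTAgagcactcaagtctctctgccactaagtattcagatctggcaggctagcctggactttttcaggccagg
Kcnj14 promoter: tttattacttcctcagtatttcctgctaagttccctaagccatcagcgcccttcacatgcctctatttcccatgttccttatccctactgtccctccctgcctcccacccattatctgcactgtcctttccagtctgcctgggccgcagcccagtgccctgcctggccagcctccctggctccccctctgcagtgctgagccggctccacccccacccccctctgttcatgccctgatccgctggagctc

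In Kcng4, TAATCC ends at the base before the start and overlaps a TAATCT on the other strand. Kcnv2 holds a TAATCT on each strand, starting 213 and 75 bases upstream, and a GC box 138 bases upstream. The windows of Kcnmb2 and Kcnj14 hold none of these motifs. RefSeq promoters were found for 38 member symbols past the filter, 43 windows in all, of which 3 (6.98%) held TAATCC and 3 (6.98%) TAATCT, against 6.34% and 7.72% of 33469 rat promoters. The CRX cores were therefore about as frequent in the members as elsewhere. TGAGTCA, bound by AP-1, and TGACGTCA, bound by CREB, were in 0 member windows and in 4.05% and 1.59% of all. The GC box was in 25 member windows (58.1%), against 30.5% of all. The member windows were also richer in G and C, with a median of 59.6% against 51.2% and 12 CpG against 5. The member windows are those of genes past the filter, while the rat promoters were not filtered by level. Whether these differences concern potassium channels or the filter was not tested. A match is a description of these letters and says nothing about binding.

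The calcium- and sodium-activated pore subunits (Kcnma, Kcnn, Kcnt and Kcnu) had 9 rows, and 5 of the 6 past the filter were lower in IR12 as deposited, while 1 was lower on the TPM scale. The median log2 ratio of the class was -0.45 as deposited and 0.07 on the TPM scale, against 0.60 for all genes there. Kcnma1 had a ratio of -0.60 as deposited and 0.04 on the TPM scale. The small-conductance channels, which follow calcium entry and slow repeated firing, moved apart: Kcnn2 was at 6.18 FPKM in CTRL and 3.57 in IR12, and Kcnn1 at 3.90 and 5.34. Kcnn1 was the only member of the class past the filter that was higher as deposited, with a log2 ratio of 0.37, and Kcnn2 was the lowest at -0.65.

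The accessory subunits of the large-conductance channel also moved apart. Kcnmb2, which gives this channel fast inactivation, was at 11.8 FPKM in CTRL and 25.4 in IR12, with a log2 ratio of 1.04 as deposited, 1.64 on the TPM scale and 0.95 on the scale without small RNAs. Kcnmb4, the main accessory subunit of neurons, was at 5.98 and 2.66, a log2 ratio of -0.93 as deposited and -0.40 on the TPM scale. Opposite directions for these 2 subunits of the same pore held on each scale. Per Kcnma1, Kcnmb2 was 0.160 in CTRL and 0.525 in IR12, and Kcnmb4 was 0.0810 and 0.0550. The ratio of Kcnmb2 to Kcnmb4 was 1.98 in CTRL and 9.53 in IR12, so the level of the inactivating subunit exceeded that of Kcnmb4 in both libraries and by more in IR12. The locus of Kcnmb2 (rn6 chr2:118546829-118586699) is not shared with another listed gene, while that of Kcnmb4 is.

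**Figure D4:**
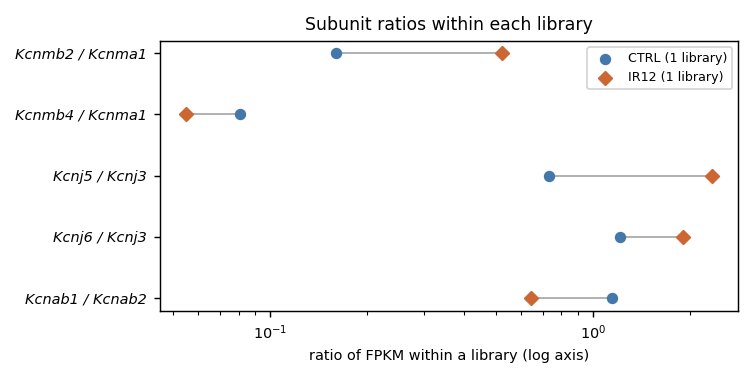
Ratio of FPKM between subunits that form channels together, within the CTRL library (circles) and the IR12 library (diamonds), on a log axis, where the scaling of a library cancels. Kcnmb2 over Kcnma1 goes from 0.160 to 0.525 and Kcnj5 over Kcnj3 from 0.730 to 2.34, while Kcnmb4 over Kcnma1 and Kcnab1 over Kcnab2 are lower in IR12.

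The inward rectifiers (Kcnj) had 14 rows and 10 past the filter, with 9 lower in IR12 as deposited and 6 on the TPM scale. The median log2 ratio of the class was -0.61 as deposited and -0.06 on the TPM scale, the lowest of the classes on both. Kcnj14 (rn6 chr1:101805531-101809544) made up most of their summed FPKM, which was 307 in CTRL and 194 in IR12. Its log2 ratio was -0.66 as deposited and -0.02 on the TPM scale. Within each library, where scaling cancels, the ratio of Kcnj14 to Kcnv2 was 1.73 in CTRL and 0.710 in IR12, the change of order at the top of the family.

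Of the 4 members at least 2-fold lower, 3 were inward rectifiers. Kcnj3, an obligate partner in channels opened by G proteins, was at 6.95 FPKM in CTRL and 2.62 in IR12, and its log2 ratio of -1.14 was the lowest of all members past the filter with a pseudocount of 1. By FPKM alone, Kcnj12 (0.331) and Kcnc4 (0.371) had lower ratios than Kcnj3 (0.377). Kcnj12, a strong rectifier, was at 3.38 and 1.12, with a ratio of -1.05. Kcnj13, a weak rectifier of pigment epithelium and Müller glia whose mutations cause retinal degeneration, was at 8.55 and 3.64, with a ratio of -1.04. All 3 stayed lower on the TPM scale, at -0.60, -0.60 and -0.49. The listed locus of Kcnj13 is shared with Gigyf2, which was at 29.8 and 29.9 FPKM, so how reads were divided between these genes was not tested.

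The G protein-gated subunits did not move together. Kcnj5 was at 5.07 FPKM in CTRL and 6.14 in IR12, the only inward rectifier past the filter that was higher as deposited. Kcnj9 was at 8.77 and 7.41, and Kcnj6, a main neuronal subunit, was at 8.46 and 4.98. Set against Kcnj3 within each library, Kcnj5 was 0.730 in CTRL and 2.34 in IR12, and Kcnj6 was 1.22 and 1.90. Kcnj3 was thus the subunit that became scarcer relative to each of these partners. Kcnj8, the pore of the vascular ATP-sensitive channel in pericytes, was low in both libraries, at 1.48 and 1.10.

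The two-pore leak channels (Kcnk) had 14 rows and 5 past the filter, with a summed FPKM of 22.4 in CTRL and 13.9 in IR12. Of these 5, 4 were lower as deposited and 3 on the TPM scale, with a median log2 ratio of -0.45 and -0.02. Kcnk2, a leak channel opened by stretch and fatty acids, was at 4.44 FPKM in CTRL and 1.72 in IR12 and had the lowest ratio past the filter, just short of 2-fold on the log2 scale (-0.998), and -0.51 on the TPM scale. Kcnk1, the most abundant, was at 11.0 and 6.07. Kcnk10, a relative of Kcnk2 that is also opened by stretch, lay just under the filter with 0.932 and 1.05. Kcnk2 and Kcnk10 thus differed in direction as deposited. Kcnk3, an acid-sensitive channel, was at 1.60 and 1.91, with the highest ratio of the class past the filter.

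The accessory subunits (Kcnab, Kcne, Kcnip and Kcnmb) had 16 rows and 9 past the filter, with 7 lower in IR12 as deposited and 3 on the TPM scale. The median log2 ratio of the class was -0.37 as deposited and 0.15 on the TPM scale. The Kcnip proteins past the filter, which bind calcium and carry A-type pores to the membrane, were lower as deposited: Kcnip4 at -0.55, Kcnip1 at -0.67 and Kcnip3 at -0.36, while on the TPM scale Kcnip1 alone was lower (-0.04). Kcnip1 was at 33.1 FPKM in CTRL and 20.5 in IR12, and Kcnip3, which also acts as a transcription repressor, was at 4.49 and 3.30. Kcnab1, a cytoplasmic beta subunit that speeds inactivation of Kcna channels, was at 28.7 and 17.0, while Kcnab2, its close relative, was at 25.0 and 26.5. The ratio of Kcnab1 to Kcnab2 went from 1.15 in CTRL to 0.642 in IR12, so the more abundant beta subunit was another one in each library. Kcne2, a small single-span subunit, was at 25.5 and 19.4.

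Listed loci limit some of these values. A locus is shared with another listed gene for 15 members, 12 of them past the filter, among them Kcnma1, Kcnip1, Kcnip4, Kcnab1, Kcnab2, Kcnip3 and Kcnmb4. Without them, a choice made after the data were seen, the median log2 ratio was -0.38 over 44 members. The libraries were made with a stranded kit, but whether strand was used in counting is not given in the sources used here, so how reads of overlapping genes on opposite strands were divided was not tested.

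Genes that work with the channels were examined as a list of 28: pump subunits, chloride cotransporters, sulfonylurea receptors, auxiliary and anchoring proteins and the repressor Rest. Of the 24 past the filter, 18 were lower as deposited and 8 on the TPM scale, with a median log2 ratio of -0.21 and 0.33, beside 0.02 and 0.60 for all genes. None was at least 2-fold higher. Atp1b3, a beta subunit of the sodium-potassium pump, was at least 2-fold lower, with 170.0 FPKM in CTRL and 71.3 in IR12 and a log2 ratio of -1.24. The gene of the list with the highest level, the beta subunit Atp1b1, was at 252 and 228, so these beta subunits differed unequally. Lrrc26 and Lrrc52, auxiliary subunits of Kcnma1 channels, were listed at 0.

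The other voltage-gated cation channels were close to the potassium channels. Of 44 sodium, calcium and HCN channel genes, 35 passed the filter, and 32 of these were lower as deposited and 15 on the TPM scale. The median log2 ratio of these channels was -0.52 as deposited and 0.08 on the TPM scale, beside -0.44 and 0.09 for the potassium channel members. At least 2-fold lower were Cacng4, at 7.01 FPKM in CTRL and 2.03 in IR12, and Cacng2, at 4.67 and 1.72, both auxiliary subunits that also traffic glutamate receptors. The most abundant, Cacna2d4 of the photoreceptor calcium channel, was at 100.3 and 84.6. A displacement below the median gene was thus not particular to potassium channels.

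Markers of retinal cell types moved unequally between the libraries, and their part in the values above was not tested. The 10 rod markers summed to 17263 FPKM in CTRL and 19912 in IR12, with 5 lower as deposited and 1 on the TPM scale, and Gnat1 was among the most abundant. The 8 amacrine markers, led by Calb2, summed to 682 and 409, with 8 lower as deposited and 6 on the TPM scale. The 3 horizontal cell markers past the filter, of 5, were lower on both scales, and the list, led by Calb1, summed to 123 and 68.3. Relative to the rod markers, those of amacrine and horizontal cells were thus lower in IR12, a relation that rescaling a column keeps by construction. The 8 bipolar markers, led by Trpm1 and with Otx2 listed at 0, summed to 603 and 452, with 6 of 7 lower as deposited and 3 on the TPM scale. The 10 ganglion cell markers, led by Nefl, summed to 359 and 294, with 6 of 8 lower as deposited and 1 on the TPM scale, and Pou4f2 alone was at least 2-fold lower. The 8 cone markers, led by Gnat2, summed to 489 and 428, with 7 lower as deposited and 3 on the TPM scale. Among these, Opn1sw was at least 2-fold lower and Gnb3 at least 2-fold higher.

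**Figure D5:**
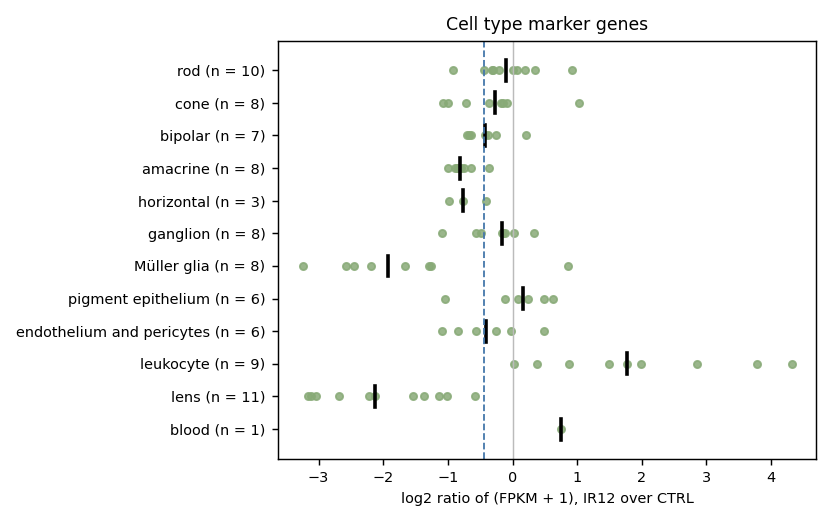
Log2 ratio of (FPKM + 1), IR12 over CTRL (1 library each), for markers of 12 cell types or tissues past the filter, with black bars at the medians and a dashed line at -0.44, the median of the potassium channel subunits. Müller glia and lens markers lie lowest and leukocyte markers highest, while the signs of the rod, cone, bipolar cell, ganglion cell and endothelium medians turn on the TPM scale.

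The largest marker differences were outside the neurons. The 8 Müller glia markers, led by Glul, summed to 1628 FPKM in CTRL and 573 in IR12. On both scales 7 were lower, each at least 2-fold as deposited: Apoe, Aqp4, Dkk3, Glul, Rlbp1, Slc1a3 and Kcnj10, which was at 7.07 and 0.467. Vim, the intermediate filament, was higher. The 9 leukocyte markers past the filter, of 10, were higher as deposited, which by construction holds on the TPM scale too. Cx3cr1, below the filter, was lower, at 1.16 and 0.676. Of the 9, 6 had a CTRL value under 1 and passed the filter through their IR12 level, so they had to be higher there. The list, led by Lyz2, summed to 21.8 and 138, with Cd14, Itgam, Lyz2, Ptprc, S100a8 and S100a9 at least 2-fold higher. The 11 lens markers, led by Cryba1, were lower on both scales and summed to 3256 and 401, with Cryga alone under 2-fold as deposited. Of 7 pigment epithelium markers, led by Ttr, 6 passed the filter, 2 of them lower as deposited and 1 on the TPM scale, and the sum was 93.9 and 121. Ttr was at 61.8 and 87.4, Rgr at 13.7 and 21.6, and Rpe65 at 11.1 and 4.88, so markers of this tissue, which also expresses Kcnj13, differed in both directions as deposited. Of 7 markers of endothelium and pericytes, 6 passed the filter, 5 of them lower as deposited and 3 on the TPM scale. They summed to 53.3 and 29.3, and Rgs5, the most abundant, was at least 2-fold lower. Of 4 blood markers, 2 had a row: Hbb, at 20.4 and 35.1, and Alas2, under the filter and lower in IR12, at 0.334 and 0.196.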

How the data were processed

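RNA of 1 CTRL and 1 IR12 rat retina was sequenced after removal of ribosomal RNA. The authors deposited gene FPKM, and their processing notes list STAR 2.5.2b, Cuffdiff 2.2.0 and rn6, with no role or order. The study shortened its reads, and whether this held for the FPKM is not given in the sources used here. No annotation release is tied to the FPKM in these sources, and the Cuffdiff normalization setting is not given. Members were matched by symbol, and listed starts, which count from 0, were raised by 1. Differences are log2 ratios of (FPKM + 1) for genes with a mean FPKM of at least 1, without a test. Alternatives were a pseudocount of 0.1, a common column sum, centring on the median gene, no filter, a mean of at least 5 and a fold of 1.5. Added after the data were seen were a common sum without small RNAs and a median without shared loci, and the recovery of whole reads.

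Named by rule were members past 2-fold, the 12 most abundant, the highest and lowest ratio of each class and 13 members known in retina, and from the other lists the genes past 2-fold and the most abundant. Other members were named after their values were seen. Some genes that the rule takes are not reported here. Members and lists were chosen with earlier results of these data known. Marker lists cover rods, cones, bipolar, amacrine, horizontal and ganglion cells, Müller glia, pigment epithelium, endothelium and pericytes, leukocytes, lens and blood. Promoters were matched by symbol to RefSeq. The computation was tested on simulated data. The work used scipy 1.17.1, pandas 2.3.3 and numpy 2.4.6 in Python 3.11.15, with figures drawn in matplotlib 3.10.9.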

Additional observations from a re-analysis of the deposited data

How the results depend on the processing

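No paired analysis was possible because each group has 1 library, and no replicate could be left out. The common column sum (TPM scale) turned the sign of more medians than any other setting. It gave 0 members at least 2-fold lower, against 3.22% of all genes, and 3 at least 2-fold higher, against 20.7%. Medians turned positive for all members (0.090), voltage-gated pore subunits (0.064) and calcium- and sodium-activated subunits (0.069). The same held for accessory subunits (0.15), partner genes (0.33) and sodium, calcium and HCN channels (0.081). By construction this scale raises IR12 relative to CTRL. It moved the median of the silent subunits to 0.92, of the inward rectifiers to -0.059 and of the two-pore channels to -0.018. Members lower in IR12 went from 47 of 56, against 48.1% of all genes, to 22, against 14.8%. Without a filter, the silent subunits turned to -0.12, and the medians moved to -0.24 for all members, -0.26 for inward rectifiers, -0.061 for two-pore channels and -0.28 for sodium, calcium and HCN channels, as rows with values near 0 entered. A pseudocount of 0.1 moved the two-pore channels to -0.64. It gave 2 members at least 2-fold higher, against 7.84% of all genes, and 6 lower, against 8.01%. A mean FPKM of at least 5 left 30 members. Of these, 1 was at least 2-fold higher, against 5.45% of all genes, and 1 at least 2-fold lower, against 5.29%. A fold of 1.5 gave 20 lower, against 13.4% of all genes, and 3 higher, against 14.3%. A common sum without small RNAs, chosen after the data were seen, gave 1 higher and 7 lower of 56, against 5.63% and 6.89% of all genes. Centring on the median gene changed no median by over 0.1. Of 33 named members, 33 moved by over 0.1 on the TPM scale and 11 with a pseudocount of 0.1. Depth limits members under 1 FPKM most, above all in CTRL.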
